A study of Mus musculus with 23 samples.

Results

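The report follows 10 genes of T cell receptor signaling through bulk colon and colon tumor libraries of mice. They are Cd3d, Cd3e, Cd3g, Cd247, Lck, Zap70, Cd4, Cd2, Cd5 and Cd6, found by their symbols among the 55450 genes of the count table. The T cell receptor itself has almost no signaling tail, so the CD3 chains (delta, epsilon and gamma, from Cd3d, Cd3e and Cd3g) and the zeta chain (from Cd247) carry its signal in tyrosine motifs. When the receptor meets a peptide on an MHC molecule, the co-receptor CD4 or CD8 brings the kinase Lck to these motifs, Lck phosphorylates them, and the kinase ZAP-70 docks there and phosphorylates the adaptors that start the response. CD2 is an adhesion receptor that adds to this signal, CD5 dampens it, and CD6 binds ALCAM on other cells. In the colon these genes are read here as markers of the T cells of the epithelium, the lamina propria and the lymphoid follicles. Bulk libraries do not show which cells the transcripts came from, and whether each member is particular to T cells was not tested.

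All libraries came from male C57BL/6 mice in which Cdx2-Cre, active in the epithelium of the distal gut, deletes 1 copy of Apc (Cdx2Apcf/w). The mice ate a high-fat diet, received antibiotics and were then colonized by gavage with Bacteroides fragilis 638R. BSHlow mice received the strain with an empty vector, and BSHhigh mice received it carrying a gene for bile salt hydrolase (BSH), the bacterial enzyme that removes the amino acid from conjugated bile acids. The 23 libraries fall into 6 groups: normal colon at 2 weeks (4 BSHlow and 4 BSHhigh), non-tumor colon at 12 weeks (4 and 4) and colon tumors at 12 weeks (4 BSHlow and 3 BSHhigh). All 6 groups carry the same Cre and floxed allele, and none is wild type. In the comparison of 12-week non-tumor with 2-week normal colon, tissue and time cannot be told apart. In the count table the names over the 3 BSHhigh tumor columns repeat those of 3 BSHlow tumors. They were assigned to BSHhigh as a group because the same values stand under that group in the paper's supplementary mRNA table, of which only a part of the genes was at hand. Each result on BSHhigh tumors depends on this, and the 3 are called replicates a, b and c. Replicates are separately labelled samples, and nothing states that they are separate animals, so each p-value measures the spread between these samples. Library totals ran from 12400000 to 17900000 expected counts with a median of 15900000, and an expected count is the number of reads that RSEM assigned to a gene. Levels are given in CPM, the usual unit of counts divided by library size, here with TMM factors.

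In the mouse genome (GRCm38) 3 of the members are neighbors on chromosome 9: Cd3g at chr9:44969572-44980431 on the minus strand, Cd3d at chr9:44981786-44987339 on the plus strand and Cd3e at chr9:44998740-45009627 on the minus strand. The starts of Cd3g and Cd3d lie 1355 bases apart and point away from each other, and the 3 genes span 40056 bases. Cd5 and Cd6 lie 50339 bases apart on chromosome 19. Zap70 (chr1:36761798-36782818) and Cd247 (chr1:165788681-165877277) are both on chromosome 1. Lck is on chromosome 4, Cd4 on chromosome 6 and Cd2 on chromosome 3. Some counts are less certain because exons overlap other genes: Cd247 shares 3007 exon bases with Pou2f1 on the other strand and 206 with Gm16565 on its own, Cd3e shares 135 with the antisense gene Gm48719, and Lck shares 25 with Mir8119. The paper names a stranded library kit, but whether the counting used the strand is not stated.

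The promoters of the 3 clustered CD3 genes, whose levels moved together, are shown beside the first of 3 Zap70 promoter entries, the member whose levels departed most from theirs. The sequences are from a set of RefSeq promoters (GRCm38.p6). The set used held 10 entries for 7 of the 10 members and none for Cd2, Cd4 and Cd6. Each runs 5′ to 3′ on the strand of its gene, from 250 bases before to 50 after the start: chr9:44981536-44981835 on the plus strand for Cd3d, chr9:45009562-45009861 on the minus strand for Cd3e, chr9:44980382-44980681 on the minus strand for Cd3g and chr1:36761548-36761847 on the plus strand for Zap70. Capitals mark exact matches, on either strand, to 4 motifs of 6 bases: a RUNX core, a GATA motif, an ETS core and an E-box.
Cd3d: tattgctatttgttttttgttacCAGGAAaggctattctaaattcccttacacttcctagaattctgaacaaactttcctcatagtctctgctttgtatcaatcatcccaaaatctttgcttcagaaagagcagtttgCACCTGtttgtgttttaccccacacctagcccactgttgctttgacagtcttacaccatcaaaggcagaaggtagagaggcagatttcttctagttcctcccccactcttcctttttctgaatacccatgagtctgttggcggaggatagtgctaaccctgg
Cd3e: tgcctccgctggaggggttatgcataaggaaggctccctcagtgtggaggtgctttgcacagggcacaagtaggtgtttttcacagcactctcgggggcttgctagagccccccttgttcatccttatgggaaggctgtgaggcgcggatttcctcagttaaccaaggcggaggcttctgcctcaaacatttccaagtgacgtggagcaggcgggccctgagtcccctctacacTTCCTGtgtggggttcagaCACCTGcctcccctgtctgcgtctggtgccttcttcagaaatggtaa
Cd3g: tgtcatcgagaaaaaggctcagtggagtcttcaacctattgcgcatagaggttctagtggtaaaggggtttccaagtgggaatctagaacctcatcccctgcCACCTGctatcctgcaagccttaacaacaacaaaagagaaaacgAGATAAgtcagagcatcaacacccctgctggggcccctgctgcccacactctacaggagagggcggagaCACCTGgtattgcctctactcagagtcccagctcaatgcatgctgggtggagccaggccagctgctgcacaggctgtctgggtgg
Zap70: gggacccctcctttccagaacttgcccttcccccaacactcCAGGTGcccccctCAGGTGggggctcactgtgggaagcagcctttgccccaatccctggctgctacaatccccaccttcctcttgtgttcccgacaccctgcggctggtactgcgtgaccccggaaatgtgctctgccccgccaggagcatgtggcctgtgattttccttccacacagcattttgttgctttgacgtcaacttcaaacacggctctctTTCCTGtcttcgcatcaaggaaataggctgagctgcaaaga
Cd3d and Cd3e each held 1 ETS match and 1 E-box, Cd3g held 1 GATA match and 2 E-boxes, and Zap70 held 1 ETS match and 2 E-boxes. No RUNX core was found in these 4 windows. The other Zap70 entries differed: the second, at chr1:36764265-36764564, held 1 RUNX core, 2 ETS matches and 0 E-boxes, and the third, at chr1:36778734-36779033, held 1 E-box only. The ETS core searched for was CAGGAA, which 30.6% of all 32851 mouse promoters of this length held at least once. The E-box was CACCTG, found on either strand in 20.2% of the same promoters. For the RUNX core the string was TGTGGT, which matched somewhere in 16.8% of them. The GATA motif was AGATAA, the rarest of the 4, with a match in 11.2% of them.

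All 10 members passed the filter on low counts in each of the 9 comparisons. Their levels were low, and the sum of the 10 averaged 25.0 CPM in BSHlow and 46.7 CPM in BSHhigh normal colon at 2 weeks. It averaged 28.4 and 30.2 CPM in BSHlow and BSHhigh non-tumor colon, and 25.2 and 57.2 CPM in BSHlow and BSHhigh tumors. The BSHhigh tumors, at 62.2, 60.0 and 49.5 CPM, had the highest mean of the 6 groups and lay above the 4 BSHlow tumors, at 36.1, 10.7, 20.2 and 33.6 CPM. Per kilobase of exon, Lck was the most abundant member in 5 of the 6 groups, from 2.12 CPM per kb in BSHlow non-tumor colon to 4.14 CPM per kb in BSHhigh colon at 2 weeks. In BSHlow tumors Zap70 was first at 3.12 CPM per kb and Lck second at 2.26 CPM per kb. Cd247 or Cd6 was last in each group, with 0.0890 CPM per kb for Cd6 in BSHlow tumors. When the 6 groups are ordered by the mean of a member, each group overlapped the next in range for all 10 members, so the order of neighbors lies within their spread.

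**Figure D1:**
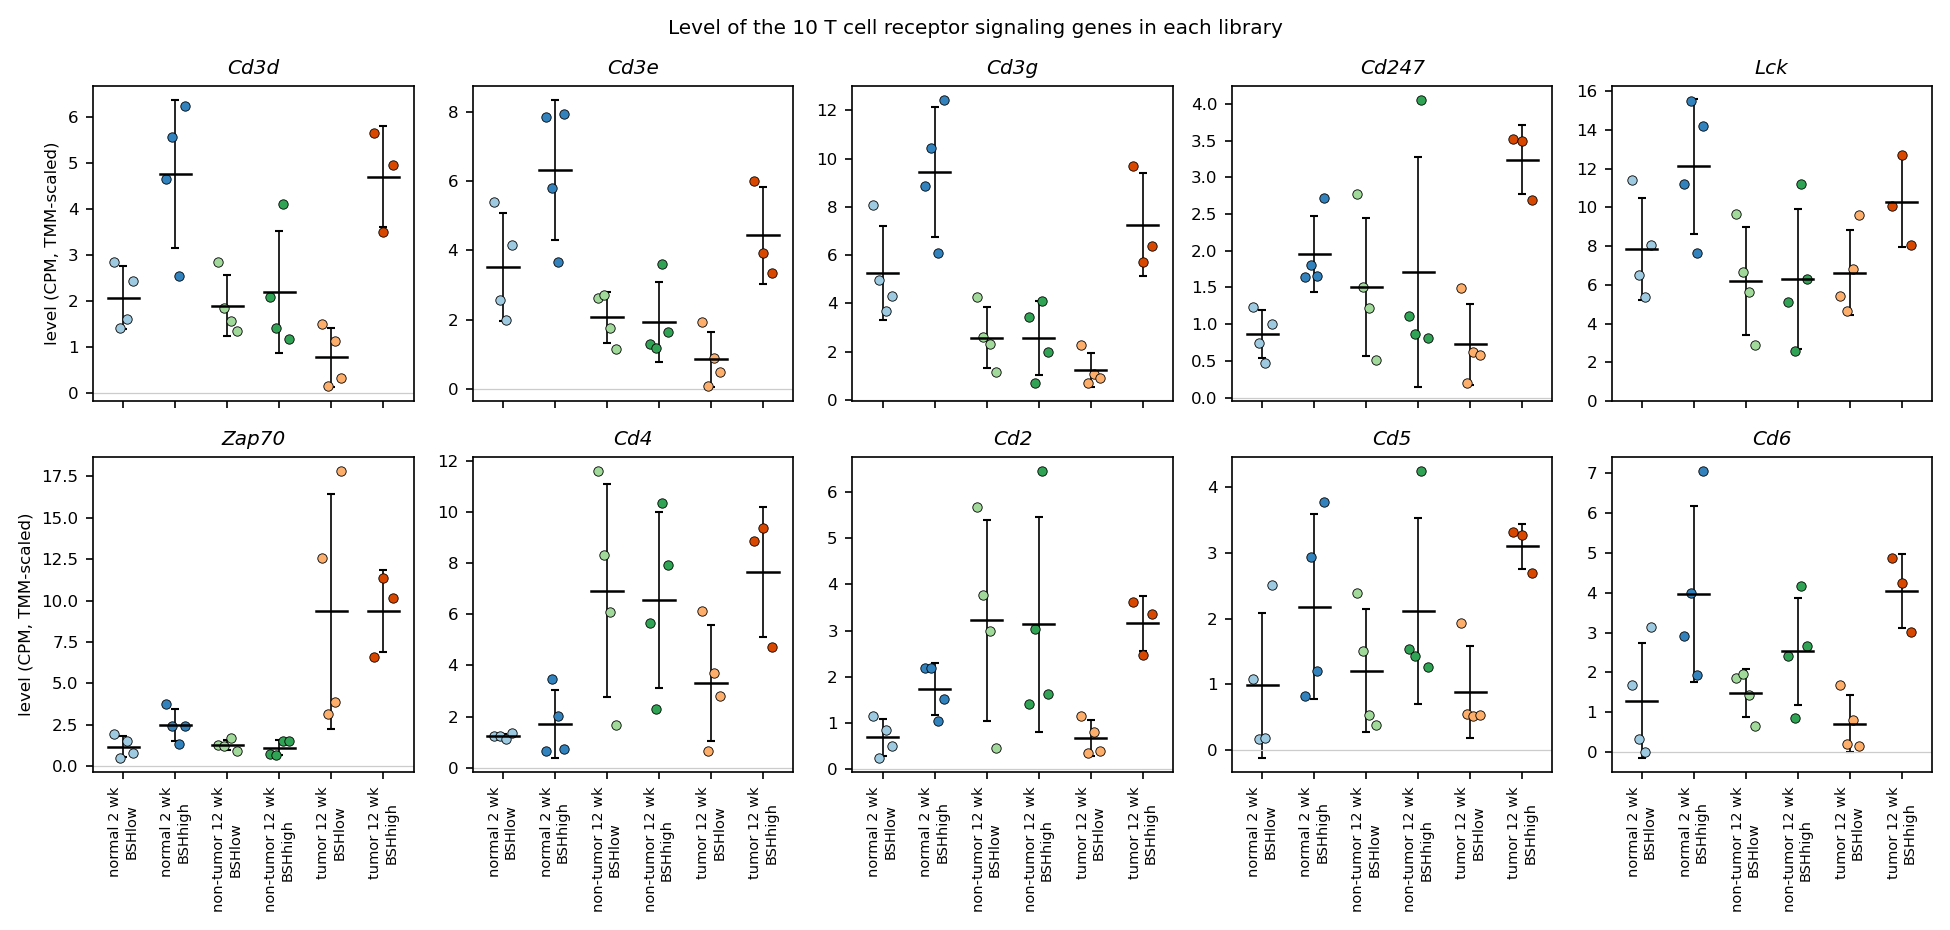
Level of each member in CPM in each of 23 libraries (points), with the group mean (horizontal line) and its SD (error bar), by tissue, time and BSH group. The CD3 chains are highest in BSHhigh colon at 2 weeks and BSHhigh tumors, and Zap70 is highest in both groups of tumors.

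The comparison of BSHhigh with BSHlow tumors asks how the bacterial enzyme bears on the T cell signal inside tumors. The CD3 and zeta chains were higher in each of 3 BSHhigh tumors than in each of 4 BSHlow tumors. Cd3d, the delta chain, was at 5.65, 3.49 and 4.96 CPM in BSHhigh replicates a, b and c and at 1.49, 0.152, 1.13 and 0.339 CPM in BSHlow replicates 1 to 4. Cd3e, the epsilon chain that every CD3 pair holds, was at 6.01, 3.94 and 3.36 CPM in BSHhigh and at 1.93, 0.101, 0.898 and 0.484 CPM in BSHlow tumors. Cd3g, the gamma chain, was at 9.69, 5.70 and 6.38 CPM in BSHhigh and at 2.27, 0.708, 1.09 and 0.919 CPM in BSHlow tumors. For all 3 chains BSHlow replicate 1 was the highest of its group and replicate 2 the lowest, and the 2 groups did not overlap. The lowest values rest on few reads: Cd3e in BSHlow replicate 2 came from 2 expected counts and Cd3d from 3. The log2 fold change was 2.55 ± 0.65 for Cd3d (standard error, here and below; 3 against 4 libraries; edgeR adjusted p = 0.135). For Cd3e it was 2.33 ± 0.72 (edgeR adjusted p = 0.216), and for Cd3g 2.50 ± 0.43 (edgeR adjusted p = 0.0536). Cd247, the zeta chain, was at 2.69 to 3.52 CPM in BSHhigh and 0.202 to 1.49 CPM in BSHlow tumors, with a log2 fold change of 2.12 ± 0.56 (edgeR adjusted p = 0.142).

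For both kinases the BSHhigh and BSHlow tumors overlapped. Lck was at 10.1, 12.7 and 8.08 CPM in BSHhigh and at 5.40, 4.65, 6.80 and 9.63 CPM in BSHlow tumors, so BSHlow replicate 4 reached into the BSHhigh range. Its log2 fold change was 0.61 ± 0.28 (edgeR adjusted p = 0.436). Zap70 was at 6.58, 11.4 and 10.2 CPM in BSHhigh and at 12.6, 3.13, 3.87 and 17.8 CPM in BSHlow tumors. BSHlow replicates 1 and 4 were above all 3 BSHhigh tumors and replicates 2 and 3 below them, with a log2 fold change of -0.03 ± 0.60 (edgeR adjusted p = 0.989). The sign of this value turned with limma-voom (0.34) and without BSHlow replicate 1 (0.16), BSHlow replicate 4 (0.49) or BSHhigh replicate a (0.17).

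Among the co-receptor and the accessory receptors, Cd4 was at 8.86, 9.37 and 4.73 CPM in BSHhigh and at 6.12, 0.657, 3.68 and 2.81 CPM in BSHlow tumors. The groups overlapped through BSHhigh replicate c and BSHlow replicate 1, and the log2 fold change was 1.17 ± 0.60 (edgeR adjusted p = 0.486). Cd2 was at 3.63, 2.48 and 3.36 CPM in BSHhigh and at 1.16, 0.354, 0.803 and 0.387 CPM in BSHlow tumors. The 2 groups did not overlap for Cd2, at a log2 fold change of 2.18 ± 0.46 (edgeR adjusted p = 0.0795). Cd5 and Cd6 showed no overlap either, with log2 fold changes of 1.77 ± 0.52 and 2.46 ± 0.73 (edgeR adjusted p = 0.200 for both).

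In all, 7 of the 10 members (Cd3d, Cd3e, Cd3g, Cd247, Cd2, Cd5 and Cd6) had each BSHhigh tumor above each BSHlow tumor, and so did 8.3% of the 15325 genes tested. A gene was called when its adjusted p was under 0.05 and its absolute log2 fold change over 1. By that rule edgeR called 0 of 10 members, beside 0.476% of all genes (73 of 15325), and 7 members had an unadjusted p under 0.05, as did 12.7% of genes. DESeq2 called the same 7 genes that did not overlap, beside 3.19% of genes called higher, and limma-voom called 0. A fit of all 23 libraries together called 5 (Cd3d, Cd3e, Cd3g, Cd247 and Cd2), beside 3.38% of genes called higher. The median log2 fold change of the members was 2.15, against -0.03 over all genes tested. Without any 1 of the 7 libraries the members called by edgeR stayed at 0, while the 73 genes called in all became 0 without BSHlow replicate 1, 3 or 4, 3 without BSHlow replicate 2, 6 without BSHhigh replicate a, 1 without b and 240 without c. In bulk RNA, fewer T cells and less of these transcripts per T cell cannot be told apart.

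**Figure D2:**
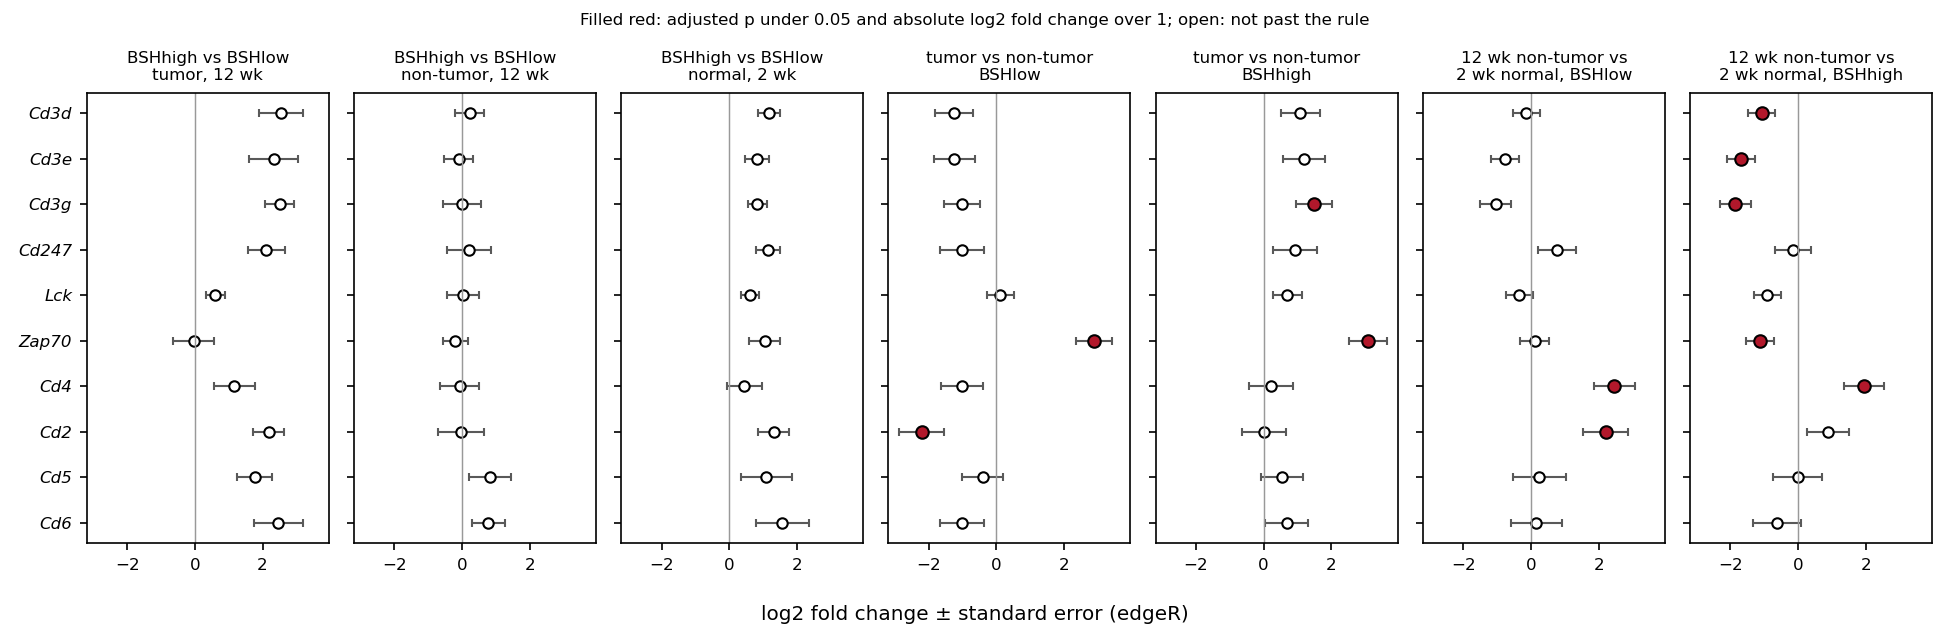
Log2 fold change of each member (edgeR, error bar 1 standard error) in 7 comparisons, with red points past the call rule and open points not past it. No member is red in the 3 comparisons of BSHhigh with BSHlow, and Zap70 is red in both comparisons of tumor with non-tumor colon.

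The other genes of the pathway were also split by role. Of 46 partners, 40 were tested in tumors, edgeR called 0, and 12 had an unadjusted p under 0.05 with an absolute log2 fold change over 1, as did 5.49% of genes. Their median log2 fold change was 0.66, with 33 positive and 7 negative. The medians were 2.31 for the 3 co-receptors and co-stimulators tested (such as CD28 and ICOS, which give T cells their second signal), 1.81 for 8 adaptors and 1.14 for 6 constant chains of the receptor. They were 0.29 for 7 kinases and effectors and 0.30 for 8 inhibitors.

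Other cell types also differed between the 2 groups of tumors. Of 8 genes of differentiated colonocytes and goblet cells, 4 were higher by the call rule: Slc26a3, the chloride and bicarbonate exchanger (log2 fold change 6.25 ± 0.98, edgeR adjusted p = 0.0481), Aqp8, a water channel (6.40 ± 0.92, 0.0406), Zg16, a goblet cell lectin (7.78 ± 1.11, 0.0406), and Fcgbp, a mucus protein (4.08 ± 0.61, 0.0421). The sum of the 8 was 4088, 1141 and 497 CPM in BSHhigh tumors and 177, 199, 124 and 88.9 CPM in BSHlow tumors, without overlap, and Car1, the most abundant of the list over all libraries, averaged 66.6 and 65.3 CPM. Madcam1, the vessel molecule to which gut-homing lymphocytes bind, was the 1 called gene of 6 tested on the follicle list (2.91 ± 0.39, edgeR adjusted p = 0.0365), whose median log2 fold change was 0.96. Each of these 5 calls was lost without any 1 of the BSHlow replicates or BSHhigh replicate b. The pan-leukocyte list (6 genes, 0 called) summed to 225 CPM in BSHhigh and 136 CPM in BSHlow tumors on average, with Laptm5 most abundant, at a median log2 fold change of 0.86. The macrophage list (9 tested, 0 called) had a median of 0.42, the B cell list (6 tested, 0 called) 0.52, the smooth muscle list (6 tested, 0 called) 0.65, the stroma and endothelium list (6 tested, 0 called) -0.14 and the epithelial list (6 tested, 0 called) 0.08. The NK receptor gene Ncr1 and the chemokine gene Ccl19 were at 0 in all 4 BSHlow tumors, which allows up to 0.0364 CPM over the group. The part of these cell types in the difference of the members was not tested. A list of NK and innate lymphoid genes is not among these medians, which therefore do not speak for all lymphocytes.

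**Figure D3:**
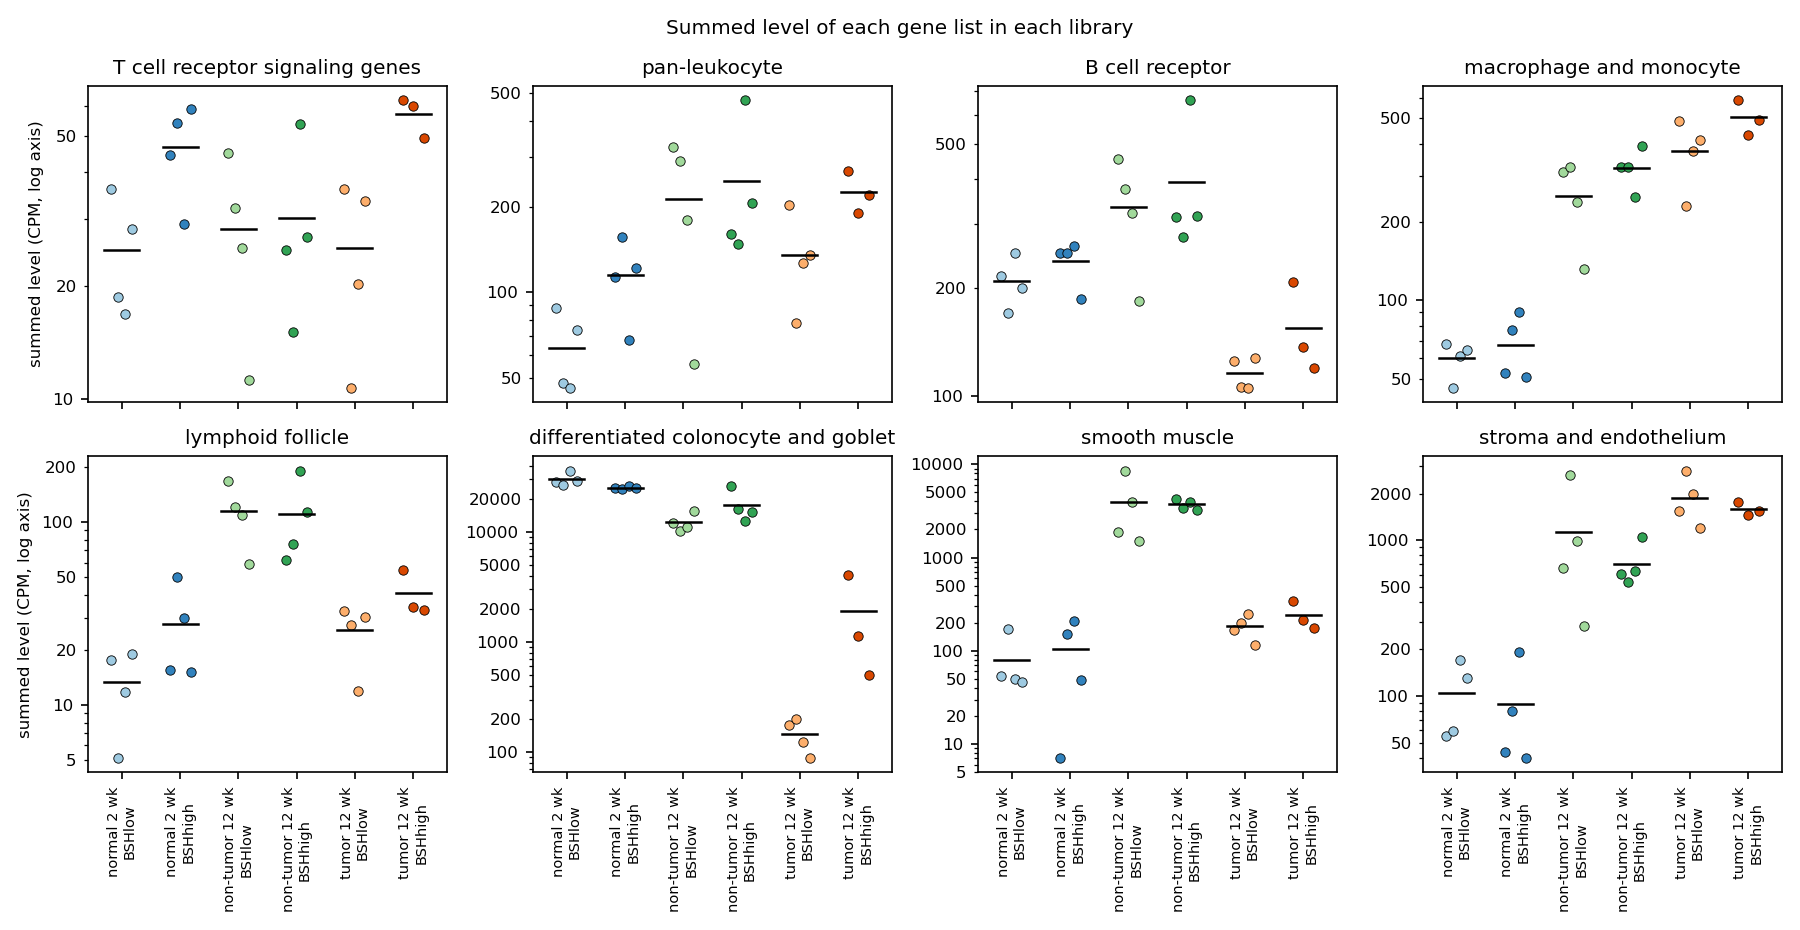
Summed CPM of the 10 members and of 7 lists of marker genes in each library (points, log axis) with the group mean (line). The differentiated colonocyte and goblet list separates the 2 groups of tumors, and the smooth muscle list is highest in 12-week non-tumor colon.

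In non-tumor colon at 12 weeks the members did not separate by BSH group. The range of Cd3e was 1.18 to 3.62 CPM in 4 BSHhigh and 1.17 to 2.72 CPM in 4 BSHlow libraries, and that of Zap70 was 0.682 to 1.53 and 0.907 to 1.70 CPM. BSHhigh replicate 3 was the highest library of its group for all 10 members. Of 10 members 5 had positive and 5 negative log2 fold changes, from -0.20 for Zap70 to 0.82 for Cd5, and the median was 0.01 against -0.01 over all genes. Cd5 was at 0.24 without BSHhigh replicate 3 and at 1.38 without BSHlow replicate 1. Zap70 was at -0.39 without BSHhigh replicate 3 and at -0.02 without BSHhigh replicate 2. By edgeR 0 were called, beside 0% of the 14933 genes tested, 0 had an unadjusted p under 0.05, beside 9.22% of genes, and DESeq2 and limma-voom also called 0 members. Of the 39 partners tested 0 were called.

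In normal colon at 2 weeks all 10 members had positive log2 fold changes, from 0.45 for Cd4 to 1.57 for Cd6. Cd3d was at 4.65, 5.57, 2.55 and 6.25 CPM in BSHhigh replicates 1 to 4 and at 2.85, 1.41, 1.60 and 2.43 CPM in BSHlow replicates 1 to 4. BSHhigh replicate 3, the lowest of its group, lay below BSHlow replicate 1, and the log2 fold change was 1.18 ± 0.33 (edgeR adjusted p = 0.607). Cd247 was at 1.64, 1.80, 1.65 and 2.72 CPM in BSHhigh and from 0.471 to 1.23 CPM in BSHlow colon, without overlap, with a log2 fold change of 1.15 ± 0.36 (edgeR adjusted p = 0.651). Cd6 was at 0 in BSHlow replicate 3, where a count of 0 allows up to 0.283 CPM. By edgeR 0 of 10 members were called, beside 0.00727% of genes (1 of 13752), 7 had an unadjusted p under 0.05, beside 6.8% of genes, and DESeq2 and limma-voom called 0. The value of Cd4 turned to -0.13 without BSHhigh replicate 2. Without BSHlow replicate 4 Cd6 was at 2.48 and Cd5 at 2.12, and without BSHhigh replicate 4 they were at 1.14 and 0.70. The median of the members was 1.08, against -0.002 over all genes, 0.93 for the 6 pan-leukocyte genes, 1.22 for 10 B cell genes, 0.54 for 43 partners and 0.07 for 6 epithelial genes, and 0 genes of these lists were called. Summed pan-leukocyte levels were 113, 156, 68.1 and 121 CPM in BSHhigh and 87.7, 47.8, 46.2 and 73.8 CPM in BSHlow libraries, and their part in the result was not tested. The follicle gene Glycam1 was at 0 in all 4 BSHlow libraries, which allows up to 0.0604 CPM over the group.

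Tumors were compared with non-tumor colon of the same time within each BSH group, and these comparisons share their libraries with those of BSHhigh and BSHlow at 12 weeks. Zap70 rose in the tumors of both groups. In BSHlow mice it went from 1.27, 1.22, 1.70 and 0.907 CPM in non-tumor colon to 12.6, 3.13, 3.87 and 17.8 CPM in tumors, a log2 fold change of 2.89 ± 0.53 (edgeR adjusted p = 0.000253). In BSHhigh mice it went from 0.740, 0.682, 1.53 and 1.48 CPM to 6.58, 11.4 and 10.2 CPM, a log2 fold change of 3.08 ± 0.55 (edgeR adjusted p = 0.000333). Each tumor was above each non-tumor library in both groups. The lowest tumors were BSHlow replicates 2 and 3, and Zap70 was called in each fit that left out 1 library. ZAP-70 is best known from T and NK cells. Cd3e in BSHlow mice was at 2.62, 2.72, 1.76 and 1.17 CPM in non-tumor colon and at 1.93, 0.101, 0.898 and 0.484 CPM in tumors. Replicate 1 of the tumors lay within the non-tumor range and the other 3 below it, at a log2 fold change of -1.24 ± 0.61 (edgeR adjusted p = 0.0864). In BSHhigh mice it was at 1.29, 1.18, 3.62 and 1.63 CPM in non-tumor colon and at 6.01, 3.94 and 3.36 CPM in tumors, at 1.19 ± 0.62 (edgeR adjusted p = 0.114), with non-tumor replicate 3 above the lowest tumor.

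Within a library, Zap70 was below Cd3e in CPM in all 16 libraries of normal and non-tumor colon, at ratios from 0.190 to 0.962. In tumors Zap70 was above Cd3e in each of 7 libraries. The ratio was 6.53, 4.32 and 36.8 in BSHlow tumor replicates 1, 3 and 4, and replicate 2 had 3.13 CPM of Zap70 beside 2 counts of Cd3e. It was 1.09, 2.89 and 3.03 in the BSHhigh tumors. These ratios were chosen after the levels were seen and carry no test. They are not divided by exon length (2.992 kb for Zap70 and 4.08 kb for Cd3e). Per kb, Zap70 lies above Cd3e in some of the normal and non-tumor libraries as well. They are 2-week BSHlow replicate 3 (0.762 in CPM), non-tumor BSHlow replicates 3 and 4 (0.962 and 0.778) and non-tumor BSHhigh replicate 4 (0.909).

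**Figure D4:**
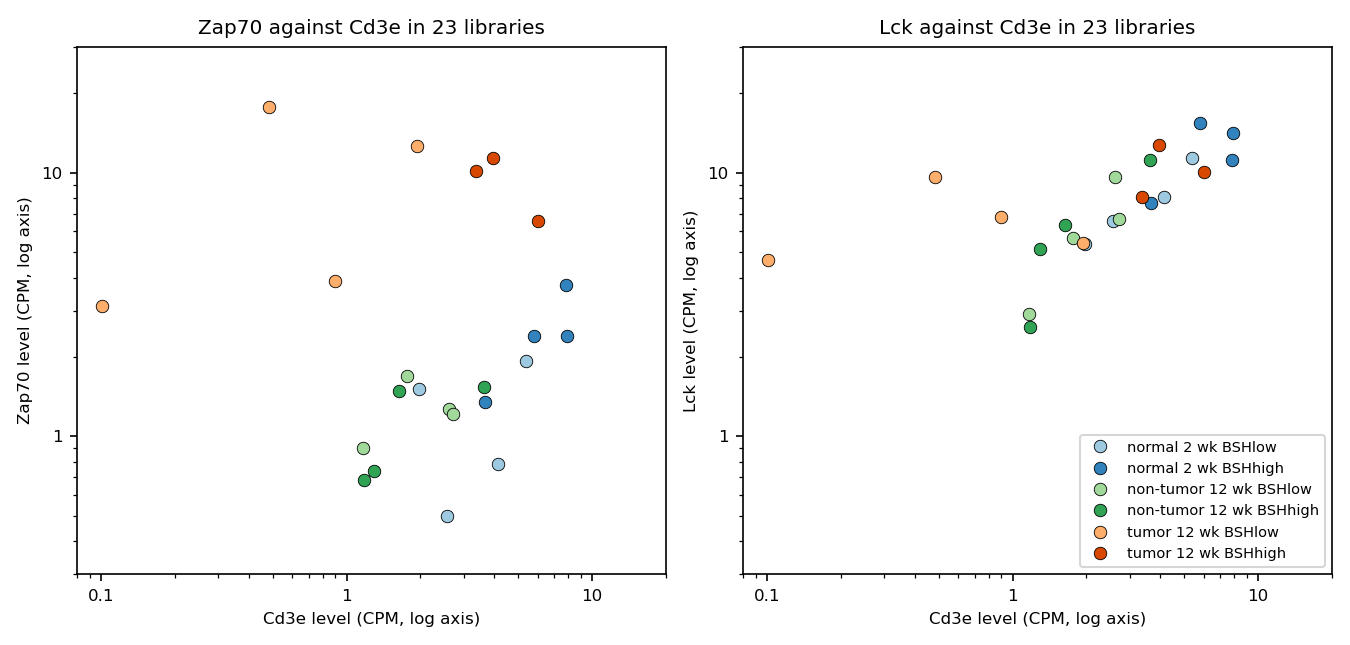
Level of Zap70 (left) and Lck (right) against Cd3e in CPM on log axes, 1 point per library, colored by group. In CPM, not divided by exon length, Zap70 is above Cd3e in all 7 tumors and below it in the other 16 libraries. At a like level of Lck, 3 BSHlow tumors have less Cd3e than all other libraries.

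Of the other members, Cd2 fell in BSHlow tumors, from 5.68, 3.76, 2.98 and 0.453 CPM in non-tumor colon to 1.16, 0.354, 0.803 and 0.387 CPM, a log2 fold change of -2.21 ± 0.66 (edgeR adjusted p = 0.00866). Non-tumor replicate 4 was low and lay within the tumor range. In BSHhigh mice Cd2 was at 1.42, 3.04, 6.44 and 1.63 CPM in non-tumor colon and at 3.63, 2.48 and 3.36 CPM in tumors, at 0.00 ± 0.65 (edgeR adjusted p = 0.997), a value that turned negative with DESeq2 or RLE scaling (-0.05 in both). Cd3g rose in BSHhigh tumors, from 3.45, 0.682, 4.11 and 2.00 CPM to 9.69, 5.70 and 6.38 CPM, a log2 fold change of 1.49 ± 0.53 (edgeR adjusted p = 0.0277). The 3 tumors were above all 4 non-tumor libraries. In BSHlow mice Cd3g had a log2 fold change of -1.02 ± 0.52 (edgeR adjusted p = 0.0990). Cd3d (-1.25 and 1.08 in BSHlow and BSHhigh mice) and Cd247 (-1.01 and 0.91) had values of the same signs, not past the call rule. Lck, at 0.11 and 0.70, Cd4, at -1.03 and 0.22, Cd5, at -0.41 and 0.54, and Cd6, at -1.02 and 0.67, were not called in either group.

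In BSHlow mice 1 of 10 members was called higher (Zap70) and 1 lower (Cd2), beside 16.7% of 16454 genes called higher and 19.5% called lower. The median of the members was -1.02, against 0.04 over all genes. The count depended on 1 library: without BSHlow tumor replicate 1, Cd3d, Cd3e, Cd3g, Cd247 and Cd6 were called lower as well, for 7 in all. In BSHhigh mice 2 were called higher (Zap70 and Cd3g) and 0 lower, beside 14.6% and 14.8% of genes, with a median of 0.81 against 0.04 over all genes. Without BSHhigh non-tumor replicate 3 the count was 6 (Cd3d, Cd3e, Cd247 and Lck in addition), and Cd3g was no longer called without BSHhigh tumor replicate a or non-tumor replicate 2 or 4, for 1 in all. The shares of all genes belong to the fit of all 15 libraries, and those of the fits without 1 library are not given here.

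Partners of the pathway were called in both directions in tumors of both BSH groups. Over all genes 16.7% were called higher and 19.5% lower in BSHlow mice, and 14.6% and 14.8% in BSHhigh mice. Whether the partners differed from these shares was not tested. In BSHlow mice 5 of 45 partners tested were called higher and 12 lower, with Cd27, a co-stimulator of the TNF receptor family (-3.06 ± 0.87, edgeR adjusted p = 0.00652), Cd28 (-3.00 ± 0.75, 0.00298), Cd8a, the alpha chain of the other co-receptor (-2.94 ± 0.89, 0.00985), and Trdc, the constant chain of the delta receptor (2.75 ± 0.41, 4.02e-05), as the largest. Co-receptors and co-stimulators (3 of 5 lower) and adaptors (5 of 9 lower, 1 higher) gave 8 of the 12 that fell. In BSHhigh mice 7 were called higher and 1 lower: Trdc (3.09 ± 0.42, edgeR adjusted p = 3.46e-05), Tcrg-C1, a constant chain of the gamma receptor (2.38 ± 0.51, 0.00120), Trac, the constant chain of the alpha receptor (2.08 ± 0.63, 0.0122), and Pag1, an adaptor that holds the Lck inhibitor Csk at the membrane (-1.84 ± 0.21, 7.09e-06), were the largest. Trdc averaged 3.61 CPM in BSHlow and 4.82 CPM in BSHhigh tumors, against 0.531 and 0.565 CPM in non-tumor colon. The 8 calls named here were kept in each fit that left out 1 library. The most abundant partner, Csk itself, averaged 81.8 and 89.4 CPM in BSHlow and BSHhigh tumors and 102 CPM in both groups of non-tumor colon.

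Tumor and non-tumor tissue also differed in their other cell types. Over all genes 16.7% were called higher and 19.5% lower in BSHlow mice, and 14.6% and 14.8% in BSHhigh mice. All 6 smooth muscle genes fell in tumors of both groups (medians -5.37 and -4.51), and their sum averaged 183 and 244 CPM in BSHlow and BSHhigh tumors against 3968 and 3722 CPM in non-tumor colon, with Tagln most abundant. Of 10 B cell genes 9 fell in BSHlow and 7 in BSHhigh tumors (medians -5.87 and -3.94), and their sum averaged 116 and 155 CPM against 334 and 392 CPM, with the adaptor gene Blnk most abundant over all libraries, at 52.9 and 70.9 CPM in tumors. Of 9 follicle genes 7 and 2 fell, their sum averaged 25.6 and 40.7 CPM against 114 and 111 CPM, and Ccl21a was the most abundant. Of 6 pan-leukocyte genes 3 fell in BSHlow and 0 were called in BSHhigh tumors, with sums of 136 and 225 CPM against 212 and 247 CPM. On the macrophage list 1 of 10 rose and 1 fell in each group, with Cd14 the most abundant and sums of 376 and 504 CPM in tumors against 252 and 323 CPM. Of 6 stroma and endothelium genes 3 rose in each group, with Col3a1 most abundant and sums of 1885 and 1587 CPM against 1137 and 709 CPM. The differentiated colonocyte list fell for 8 of 8 genes in BSHlow and 7 of 8 in BSHhigh tumors, and the sum of the 6 epithelial genes (1 higher and 2 lower in BSHlow, 1 higher in BSHhigh mice), with Krt8 most abundant over all libraries, averaged 6363 and 6580 CPM in tumors against 10668 and 10072 CPM. The part of these cell types in the changes of Zap70, Cd2 and Cd3g was not tested.

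From 2-week normal to 12-week non-tumor colon Cd4 rose in both BSH groups. In BSHlow mice it went from 1.23, 1.24, 1.13 and 1.36 CPM to 11.6, 8.33, 6.11 and 1.68 CPM, a log2 fold change of 2.46 ± 0.60 (edgeR adjusted p = 0.00348). The 4 libraries of 12 weeks were above all 4 of 2 weeks, with replicate 4 far below the other 3. In BSHhigh mice it went from 0.639, 3.46, 2.02 and 0.721 CPM to 5.67, 2.30, 10.4 and 7.94 CPM, a log2 fold change of 1.95 ± 0.58 (edgeR adjusted p = 0.0115), and replicate 2 of each time overlapped the other group. Cd2 rose in BSHlow mice, from 1.16, 0.248, 0.848 and 0.501 CPM to 5.68, 3.76, 2.98 and 0.453 CPM (2.21 ± 0.67, edgeR adjusted p = 0.0126), again with replicate 4 of 12 weeks low, and had a log2 fold change of 0.88 ± 0.61 in BSHhigh mice (edgeR adjusted p = 0.248). Cd3e fell in BSHhigh mice, from 7.85, 5.79, 3.67 and 7.93 CPM to 1.29, 1.18, 3.62 and 1.63 CPM, a log2 fold change of -1.68 ± 0.42 (edgeR adjusted p = 0.00364). Non-tumor replicate 3 came close to replicate 3 of 2 weeks, and the groups did not overlap. Cd3g fell too, from 8.85, 10.5, 6.07 and 12.4 CPM to 3.45, 0.682, 4.11 and 2.00 CPM (-1.85 ± 0.46, edgeR adjusted p = 0.00364), also without overlap, as did Cd3d (-1.07 ± 0.39, edgeR adjusted p = 0.0337) and Zap70 (-1.13 ± 0.43, edgeR adjusted p = 0.0387), whose ranges overlapped. In BSHlow mice these 4 had log2 fold changes of -0.78 (Cd3e), -1.03 (Cd3g), -0.14 (Cd3d) and 0.11 (Zap70), none past the call rule. Cd247, Lck, Cd5 and Cd6 were not called in either group.

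In BSHlow mice 2 of 10 members were called higher (Cd4 and Cd2) and 0 lower, beside 17% and 8.06% of 15532 genes, with a median of 0.13 against 0.0003 over all genes. Cd3g was called lower as well without non-tumor BSHlow replicate 1 or non-tumor BSHhigh replicate 2, for 3 in all. In BSHhigh mice 1 was called higher (Cd4) and 4 lower, beside 16.8% and 7.56% of genes, with a median of -0.77 against 0.03. Only Cd4, Cd3e and Cd3g were called in each of the 16 fits without 1 library. Cd3d and Zap70 lost their calls, for 3 in all, without non-tumor BSHhigh replicate 1 or 2 or 2-week BSHhigh replicate 1, 2 or 4, and Cd3d alone did without non-tumor BSHhigh replicate 4, for 4 in all. Lck was called lower in addition without replicate 3 of either BSHhigh group, for 6 in all. With limma-voom the calls of Cd2 in BSHlow mice and of Cd4 in BSHhigh mice were lost, and Lck was called lower in BSHhigh mice. In BSHhigh mice a block on replicate number called only Cd3e and Cd3g, and the fit of all 23 libraries called Cd4, Cd3e and Cd3g. The shares of all genes belong to the main fit, and those of the other fits are not given here.

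Among the partners Tcrg-C2 and Tcrg-C4, 2 constant chains of the gamma receptor, and Cd8a fell in both BSH groups from 2-week normal to 12-week non-tumor colon. Over all genes 17% were called higher and 8.06% lower in BSHlow mice, and 16.8% and 7.56% in BSHhigh mice. In BSHlow mice 9 of 46 partners rose and 3 fell, and the largest were Cd28 (2.35 ± 0.67, edgeR adjusted p = 0.00861), Cd8a (-2.30 ± 0.57, 0.00363), Sla, an adaptor that lowers receptor levels (1.97 ± 0.44, 0.00191), and Tcrg-C2 (-1.82 ± 0.41, 0.00206). In BSHhigh mice 4 rose and 4 fell, and the largest were Tcrg-C2 (-3.97 ± 0.46, edgeR adjusted p = 7.71e-06), Cd8a (-3.07 ± 0.57, 0.000458), Tcrg-C4 (-2.73 ± 0.46, 0.000199) and Icos (2.30 ± 0.63, 0.00689). Cd8a averaged 6.71 and 11.7 CPM in BSHlow and BSHhigh colon at 2 weeks and 1.37 and 1.35 CPM in non-tumor colon. All 8 of these calls were kept in each fit that left out 1 library, and that of Cd28 in BSHlow mice was lost with limma-voom.

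Markers of muscle, stroma and other leukocytes also differed between the tissues of 2 and 12 weeks. Over all genes 17% were called higher and 8.06% lower in BSHlow mice, and 16.8% and 7.56% in BSHhigh mice. All 6 smooth muscle genes rose in both groups (medians 5.54 and 5.29), from sums that averaged 80.5 and 104 CPM in BSHlow and BSHhigh colon at 2 weeks to 3968 and 3722 CPM. All 6 stroma and endothelium genes rose in both groups, with sums of 104 and 88.9 CPM at 2 weeks and 1137 and 709 CPM at 12 weeks. Of 10 macrophage genes 9 and 10 rose, of 10 B cell genes 8 and 4, of 8 follicle genes tested 8 and 4 and of 6 pan-leukocyte genes 5 and 3. The summed follicle genes went from 13.3 and 27.6 CPM to 114 and 111 CPM, and the pan-leukocyte genes from 63.9 and 115 CPM to 212 and 247 CPM. Of 8 differentiated colonocyte genes 3 fell in BSHlow mice, and 2 fell and 1 rose in BSHhigh mice, with Car1 at 14534 and 10166 CPM at 2 weeks and at 404 and 148 CPM at 12 weeks. Of 6 epithelial genes 0 were called in either group. The part of these tissues in the changes of the members was not tested.

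Whether the BSH groups differed more in tumors than in non-tumor colon was tested as a difference of 2 log2 fold changes, over the 15 libraries of 12 weeks. The difference was 2.51 ± 0.75 for Cd3g (edgeR adjusted p = 0.179), 2.43 ± 0.86 for Cd3e (edgeR adjusted p = 0.317), 2.34 ± 0.81 for Cd3d (edgeR adjusted p = 0.293) and 0.18 ± 0.74 for Zap70 (edgeR adjusted p = 0.985). All 10 members were positive, though Zap70 turned to -0.09 without BSHlow tumor replicate 2 and to -0.06 without replicate 3, with a median of 1.81 against 0.03 over all genes, and edgeR called 0 beside 0.978% of 16454 genes. Of the 10, 4 had an unadjusted p under 0.05, beside 9.6% of genes, limma-voom called 0, and DESeq2 called 1, Cd3g, beside 2.27% of genes called higher. Of 45 partners 0 were called. Of 8 differentiated colonocyte and goblet genes 7 were called, from 3.40 ± 0.63 for Krt20 to 7.18 ± 1.11 for Zg16, with Slc26a3 at 6.82, Aqp8 at 7.05, Car4 at 5.62, Muc2 at 3.46 and Fcgbp at 3.53. Of these, Slc26a3, Car4, Zg16 and Fcgbp were called in all 15 fits that left out 1 library, Krt20 in 14, Aqp8 in 9 and Muc2 in 1, and limma-voom called 0 of the 7.

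The same test between 12-week non-tumor and 2-week normal colon gave negative values for all 10 members, from -1.32 for Cd2 to -0.27 for Cd5, with a median of -0.86 against -0.001 over all genes. By edgeR 0 were called, beside 0% of 15532 genes, 0 had an unadjusted p under 0.05, beside 7.31% of genes, and DESeq2 and limma-voom called 0. Of 46 partners 0 were called. The values of Cd4 and Cd5 turned positive without 1 library, up to 0.07 for Cd4 without 2-week BSHhigh replicate 2 and 0.28 for Cd5 without non-tumor BSHlow replicate 1.

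The balance of T cell subsets was followed as the log2 ratio of 2 genes within a library, with 0.5 CPM added to each. Transcripts of these genes from other cells, if present, enter the ratios, and their part was not tested. Cd8a to Cd4, the 2 co-receptors, averaged 1.83 ± 0.90 (SD, n = 4) in BSHlow and 2.59 ± 1.26 (n = 4) in BSHhigh colon at 2 weeks. At 12 weeks it averaged -1.83 ± 0.55 and -1.92 ± 0.71 in non-tumor colon and -2.33 ± 0.75 and -2.95 ± 0.17 (n = 3) in tumors. All 8 libraries of 2 weeks were above 0.96 and all 15 of 12 weeks below -1.01. From 2 to 12 weeks the difference was -3.66 in BSHlow and -4.51 in BSHhigh mice (2-sided exact permutation p = 0.0286 for each, the smallest that 4 against 4 allows; adjusted over 21 tests, 0.171). Trdc to Cd3e averaged 1.72 ± 0.99 in BSHlow tumors and -1.29 ± 0.65 in BSHlow non-tumor colon, a difference of 3.02 without overlap (exact permutation p = 0.0286, adjusted 0.171). In BSHhigh mice it averaged 0.14 ± 0.44 in tumors and -1.13 ± 0.83 in non-tumor colon, a difference of 1.27 (exact permutation p = 0.0571, the smallest that 3 against 4 allows; adjusted 0.171). Foxp3 to Cd4, the share of the gene that defines regulatory T cells, averaged from -2.44 in BSHhigh non-tumor colon to -1.27 in BSHhigh tumors, with the largest difference, 1.17, between those groups (exact permutation p = 0.0571, adjusted 0.171). Between BSHhigh and BSHlow tumors the difference was -1.58 for Trdc to Cd3e and -0.62 for Cd8a to Cd4 (exact permutation p = 0.0571 for each, adjusted 0.171), and 0.37 for Foxp3 to Cd4 (exact permutation p = 0.457, adjusted 0.6). That of Cd8a to Cd4 turned to 0.12 when 0.1 CPM was added in place of 0.5. Between the BSH groups in the other tissues the differences ran from -0.66 for Trdc to Cd3e to 0.76 for Cd8a to Cd4, both at 2 weeks (exact permutation p = 0.114 and 0.343). None of the 21 tests passed an adjusted p of 0.05.

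Across libraries the members moved together apart from Zap70. On log2 CPM less the mean of its group, Pearson r over 23 libraries had a median of 0.62 for the 45 pairs of members, from 0.17 for Zap70 with Cd5 to 0.86 for Cd3d with Cd3e. Cd247 had the highest mean r with the other 9 members, at 0.71, and Zap70 the lowest, at 0.31. Lck was the member closest to Zap70, at 0.47, and Cd5 and Cd6 were the closest to each other, at 0.83. The 10 genes outside the members with the highest mean r to them, of 14395 genes at a mean of at least 1 CPM, were Rasal3 (0.77), Gimap3, Il16, Ptprc, Arhgap30, Hvcn1, Acap1, Arl5c, Coro1a and Sash3 (0.74). For each of these 10 Zap70 was the member of lowest r, and over the other genes the median of the mean r was -0.01.

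**Figure D5:**
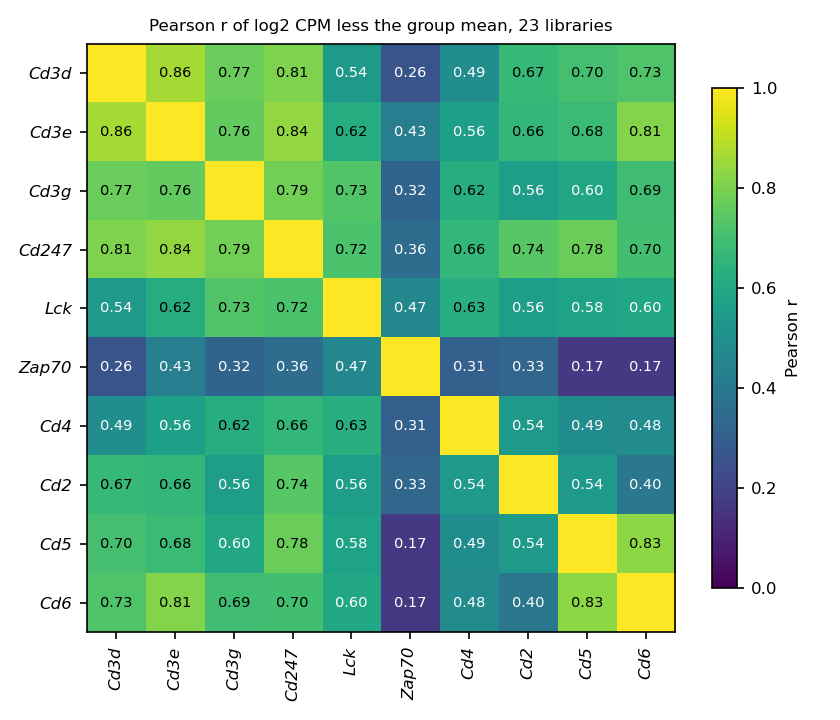
Pearson r between members over 23 libraries, on log2 CPM less the mean of each group, with color from 0 to 1. The row of Zap70 runs from 0.17 to 0.47 and holds the 7 lowest of the 45 values, and Cd3d with Cd3e holds the highest, 0.86.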

How the data were processed

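The deposited table held the expected counts that the authors obtained with RSEM after trimming with cutadapt, alignment with STAR and quality checks with Picard, for 55450 genes and 23 libraries. Expected counts were rounded to whole numbers, since 4.24% of values were not whole. One row (Fgf6) was dropped because a cell held the text "0ccl2", and 1 blank row was skipped. Library totals ran from 12400000 to 17900000 expected counts. Columns were matched to groups by their names, except those of the 3 BSHhigh tumors. Their names repeat those of 3 BSHlow tumors, and they were assigned as a group because the same values stand under BSHhigh tumors in the paper's supplementary mRNA table. The members and lists were chosen with earlier results of these data known.

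Each comparison was tested with the edgeR quasi-likelihood test after filterByExpr and TMM scaling, with Benjamini-Hochberg adjustment over all genes tested. The BSH groups were compared within each tissue and time. Tumor against non-tumor colon and the difference of effects at 12 weeks used all 15 libraries of 12 weeks, and the comparisons over time used the 16 libraries of normal and non-tumor colon. Log2 ratios of genes were compared with exact permutation tests, adjusted over 21 tests. Alternatives were DESeq2, limma-voom, RLE scaling, other filters, all 23 libraries in one fit, a block on replicate number, a pseudocount of 0.1 CPM and fits without 1 library each. Motifs were searched as exact strings. The pipeline was tested on simulated data with known changes. Genes named in the text were the 10 members, genes of the other lists past the call rule in the BSH comparisons, the 4 partners of largest absolute log2 fold change past that rule in the other comparisons, the most abundant gene of each marker list, genes at 0 in a whole group, and the 10 genes most correlated with the members. The ratio of Zap70 or Lck to Cd3e was added after the levels were seen. Tools were R 4.3.3, edgeR 4.0.16, limma 3.58.1, DESeq2 1.42.0, Python 3.11.15, scipy 1.17.1 and GENCODE M21 (GRCm38).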

Additional observations from a re-analysis of the deposited data

Results flagged for a closer look

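Of 70 groups of 4 values tested for 1 value far from the rest, 7 had one. The test flags about 1 in 20 groups when values are independent and normally distributed. These groups share libraries and genes, so the 7 cannot be set against that rate. Cd247 in BSHhigh normal colon at 2 weeks was at 2.72 CPM in replicate 4, next to 1.80 CPM. In BSHhigh non-tumor colon replicate 3 was high for Cd247, at 4.05 CPM next to 1.11 CPM, and for Cd5, at 4.23 CPM next to 1.54 CPM, and the same library was the highest of its group for each other member. Cd5 in BSHlow tumors was at 1.93 CPM in replicate 1, next to 0.556 CPM. The log2 ratio of Cd8a to Cd4 was -1.01 in replicate 4 of BSHlow non-tumor colon, next to -2.10, and -1.21 in replicate 2 of BSHlow tumors, next to -2.68. The log2 ratio of Foxp3 to Cd4 was -1.65 in replicate 4 of BSHlow non-tumor colon, next to -2.49. Both replicate 4 of BSHlow non-tumor colon and replicate 2 of BSHlow tumors had the lowest Cd4 of their group, at 1.68 and 0.657 CPM. The cause was not tested. Of the 10 members edgeR called 0 for a difference of effects, while DESeq2 called 1, Cd3g, for tumor minus non-tumor colon.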

How the results depend on the processing

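Each result was computed again with the alternatives, and no member past the call rule changed sign in any of them. The cause of the differences below was not tested. Of 10 members in BSHhigh against BSHlow tumors, edgeR called 0, DESeq2 7, edgeR with no filter 2 and all 23 libraries in one fit 5. Over all genes that comparison gave 73 calls, 534 with DESeq2, 41 with limma-voom, 320 with no filter, 578 with all 23 libraries in one fit and 0 to 240 without 1 library. Between BSH groups in non-tumor colon there were 0 calls over all genes, 53 with DESeq2 and 1 with all 23 libraries or a replicate block. At 2 weeks there was 1, 27 with DESeq2, 5 with no filter, 2 with all 23 libraries and 0 to 37 without 1 library (37 without BSHlow replicate 4). In tumor against non-tumor colon of BSHlow mice 2 members were called, 4 with DESeq2, 4 with limma-voom and 2 to 7 without 1 library (7 without BSHlow tumor replicate 1). In BSHhigh mice 2 were called, 4 with limma-voom and 1 to 6 without 1 library. In the difference of the BSH effect, tumor minus non-tumor, 0 were called and 1 with DESeq2, and over all genes 161, 380 with DESeq2, 0 with limma-voom, 263 with all 23 libraries and 86 to 335 without 1 library (86 without BSHhigh tumor replicate a, 335 without c). In that over time there were 0 over all genes, 21 with DESeq2, 1 with all 23 libraries and 0 to 4 without 1 library. From 2 to 12 weeks 2 were called in BSHlow mice and 1 with limma-voom, while in BSHhigh mice 5 were called, 3 with all 23 libraries in one fit, 2 with a replicate block and 3 to 6 without 1 library. For tumor against non-tumor colon and for the change over time within a BSH group, the shares of all genes called under the alternatives are not given here. Some signs turned. With limma-voom the log2 fold change was 0.34 for Zap70 between tumors, -0.021 for Lck, 0.033 for Cd4 and 0.20 for Cd2 between BSH groups in non-tumor colon, and 0.034 for Cd5 over time in BSHhigh mice. With a replicate block it was -0.030 for Lck and 0.11 for Cd2 in non-tumor colon and 0.017 for Cd5 over time in BSHhigh mice. Cd3g between BSH groups in non-tumor colon was 0.0019 with RLE scaling, 0.0023 with no filter and 0.0060 with all 23 libraries. Cd2 in tumor against non-tumor colon of BSHhigh mice was -0.050 with DESeq2, -0.052 with RLE scaling and -0.0029 with a CPM filter. With a pseudocount of 0.1 CPM in place of 0.5 the difference in log2 ratio went from -0.62 to 0.12 for Cd8a to Cd4 between tumors, and over time in BSHlow mice from -0.66 to 0.37 for Foxp3 to Cd4 and from 0.043 to -0.17 for Trdc to Cd3e. Without 1 library, between BSH groups in non-tumor colon, values ran from -0.26 to 0.48 for Cd3d, -0.59 to 0.083 for Cd3e, -0.32 to 0.35 for Cd3g, -0.66 to 0.67 for Cd247, -0.40 to 0.33 for Lck, -0.40 to 0.30 for Cd4 and -0.65 to 0.40 for Cd2, and the ratios from -0.26 to 0.26 for Cd8a to Cd4, -0.26 to 0.097 for Foxp3 to Cd4 and -0.10 to 0.57 for Trdc to Cd3e. Between tumors Zap70 ran from -0.31 to 0.49. At 2 weeks Cd4 ran from -0.13 to 0.71 and Foxp3 to Cd4 from -0.062 to 0.51. In tumor against non-tumor colon Lck ran from -0.14 to 0.40 and Cd5 from -1.15 to 0.13 in BSHlow mice, and Cd4 from -0.065 to 0.52 and Cd2 from -0.24 to 0.62 in BSHhigh mice. Over time in BSHlow mice Cd3d ran from -0.39 to 0.043, Zap70 from -0.14 to 0.44, Cd5 from -0.30 to 1.27, Cd6 from -0.23 to 1.07 and Trdc to Cd3e from -0.18 to 0.31. Over time in BSHhigh mice Cd247 ran from -1.03 to 0.064 and Cd5 from -0.60 to 0.39. In the differences of effects Zap70 ran from -0.089 to 0.70 at 12 weeks, and Cd4 from -0.83 to 0.074 and Cd5 from -1.29 to 0.28 over time. Libraries of the same replicate number did not pair in any of 5 comparisons, and no block could be formed with the BSHhigh tumors, which have no numbers.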
